A study of Mus musculus with 9 samples.

Results

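Bambi is the single gene described here, and it was followed through its probe A_51_P248819 on every array. The probe was 1 of 60691 probes read from each array and 1 of 46 that could be given exactly 1 gene symbol. The rule takes the probe by its name and uses no measured value, although the gene was proposed with earlier results of these data known. The files list it under the transcript accession of Bambi, and it was spotted 10 times per array, which gave 90 spots in all. The lungs came from male C57BL/6J mice, 20 weeks old, whose upper and middle right lobes were collected, with 1 array per mouse and 3 mice per group. Control mice were fed a normal diet for 12 weeks, received sterile saline and weighed 31 ± 0.5 g according to the labels, which do not say what the error is. HFD mice ate a high-fat diet (60% of energy as fat) for 12 weeks, received sterile saline and weighed 45 ± 0.5 g. Mice of the HFD + LPS group had the same diet and the same labelled weight, and were given lipopolysaccharide (LPS), the endotoxin of Gram-negative bacteria, into the trachea 24 h before collection. No group of lean mice given LPS is among these arrays, so the effect of LPS could be compared with saline within the high-fat diet only.

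Bambi (BMP and activin membrane-bound inhibitor) encodes a transmembrane protein whose extracellular part resembles the type I receptors of the TGF-β family, but which lacks the intracellular kinase domain that such receptors use to signal. Because it joins receptor complexes without passing the signal on, it is called a pseudoreceptor, and it dampens signalling by TGF-β, BMP and activin. It has also been described as a promoter of Wnt signalling and as a transcriptional target of BMP and Wnt signals. In hepatic stellate cells, LPS acting through TLR4 is known to lower Bambi and to sensitise the cells to TGF-β. The reference annotation also lists a transcribed Bambi pseudogene, Bambi-ps1. No probe sequence was used here, and whether the probe also binds RNA of the pseudogene was not tested.

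Bambi was readily measured in every lung. All 90 spots were well above background, and 0 were saturated. The signal of single spots lay between 126.8 and 592.8, over local backgrounds of 11 to 28 around the spots. The error that the scanner software attached to a spot was 10.01% to 11.8% of its signal. A total of 3 spots carried an outlier flag, 1 of them on the array of control mouse 1 and the other two on that of control mouse 2, and the remaining 87 spots were averaged. Averaged over its spots on the log2 scale, and before any scaling between arrays, Bambi gave a signal of 161, 306 and 283 in control mice 1 to 3. The signals were 209.6, 500.3 and 411 in HFD mice 1 to 3. In HFD + LPS mice 1 to 3 they were 435, 155 and 359.7. The lowest signal in the series was that of HFD + LPS mouse 2, closely followed by that of control mouse 1, while the highest was found in an HFD mouse.

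Arrays differed in overall brightness, so the 75th percentile of each array's log2 signals was subtracted before mice were compared. On this scale, a level of 1 means a signal that is 2-fold the 75th percentile. The level of Bambi was 1.72, 2.59 and 2.39 in the control mice. It was 2.25, 2.74 and 2.79 in the HFD mice. In the HFD + LPS mice it was 2.63, 1.29 and 1.91. The means were 2.23 ± 0.46 in the control group, 2.60 ± 0.30 in the HFD group and 1.94 ± 0.67 in the HFD + LPS group (log2, SD, n = 3 each). HFD therefore had the highest mean and HFD + LPS the lowest, but every pair of groups overlapped. The first HFD mouse lay below control mice 2 and 3, and the first HFD + LPS mouse lay above all control mice. Tested over the 3 groups together, no difference in the level of Bambi passed the test (exact permutation test over all 1680 assignments of the 9 arrays, p = 0.357, where the smallest possible p is 0.0036). Neither neighbouring pair in this order, HFD and control or control and HFD + LPS, was separated beyond its spread.

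**Figure D1:**
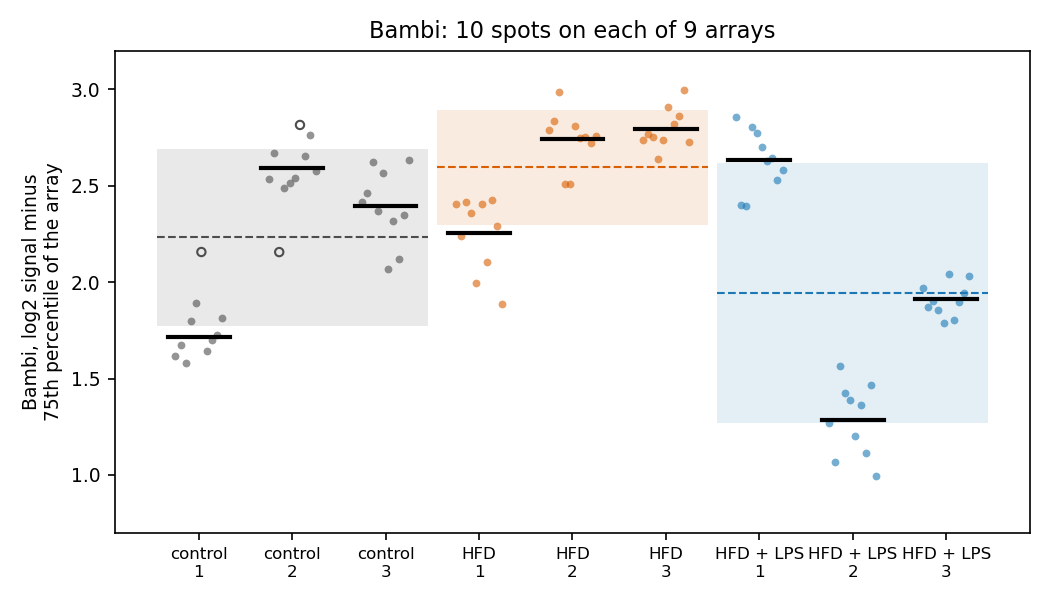
Level of Bambi on each array as log2 signal minus the array's 75th percentile (y axis), for 3 mice in each of 3 groups (x axis). Points are the 10 spots of an array, open points are outlier spots that were left out, black bars are array means, and dashed lines with shading are the group mean ± SD; the spots of an array lie close together while mice of the same group, such as HFD + LPS mice 1 and 2 at 2.63 and 1.29, lie far apart.

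Bambi varied more between arrays of a group than between the spots of an array. With 1 array per mouse, differences between mice cannot be told apart from those of labelling and hybridisation, and both are part of the spread between mice given here. The SD between spots of an array was 0.087 to 0.19 (log2) and 0.15 when pooled over the arrays. With up to 10 spots per array, this left an error of 0.048 in the mean of an array. The SD between mice of a group was 0.50, and the error from spots made up 0.911% of that variance. Of the 37 other named probes that passed the background limit on 5 or more of the 9 arrays, 5 had a larger SD between mice than Bambi, whereas 24 had a larger SD between spots. The median SD of those probes was 0.27 between mice and 0.18 between spots. Over all 30454 probes tested for HFD vs. control, 74.4% had a smaller SD between mice than Bambi. Most of these probes had a single spot per array, so their SD holds the whole error of a spot, unlike that of Bambi. The plot of both spreads shows Bambi among the named probes with a small error between spots and a large spread between mice.

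**Figure D2:**
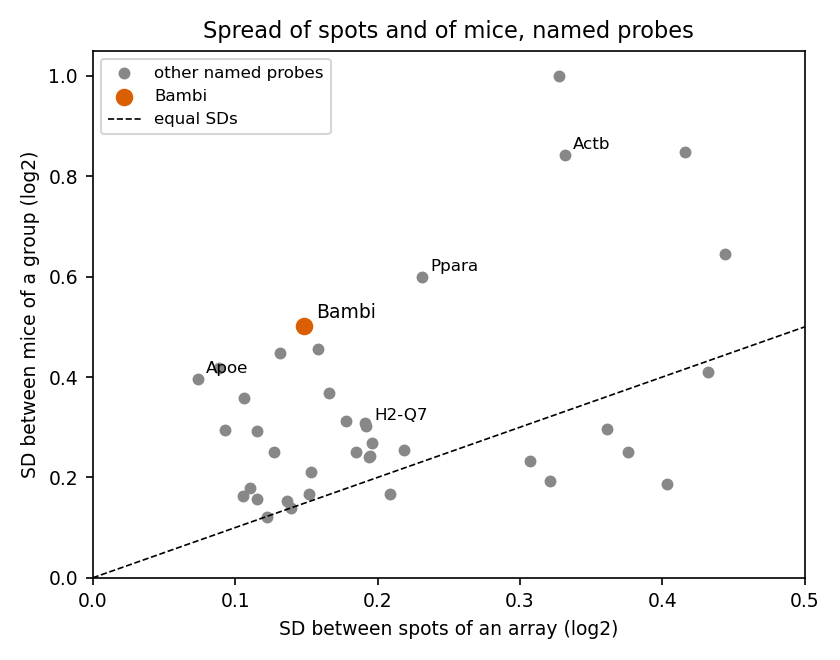
SD between spots of an array (x axis, log2) and SD between mice of a group (y axis, log2) for the named probes above the background limit on 5 or more arrays. Each point is a probe and the dashed line marks equal SDs; Bambi (0.15 between spots, 0.50 between mice) lies well above the line, and most of the other probes also lie above it.

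The spots also allowed the differences between groups to be read at 10 places of the array surface, since each spot position was the same on every array. These positions are repeated readings of the same 9 RNA samples and are no replicates of a group. At 7 positions the spots of all 9 arrays were used, while at the remaining 3 the outlier spot of a control mouse was left out, so that the control mean there rested on the other control mice. The difference between the HFD and control means lay above 0 at all 7 complete positions, from 0.092 to 0.52 (log2). The difference between HFD + LPS and HFD lay below 0 at these 7 positions, from -0.84 to -0.43. The difference between HFD + LPS and control lay below 0 as well, from -0.49 to -0.16. With the outlier spots kept, the 10 positions gave 0.092 to 0.60 for HFD minus control and -0.49 to -0.16 for HFD + LPS minus control, and with them left out 0.092 to 0.62 and -0.49 to -0.046.

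To examine the effect of the diet, HFD was compared with control. The mean of Bambi was 1.29-fold higher in HFD lungs, a log2 fold change of 0.36 with a standard error of 0.36 (limma, adjusted p = 1.00). Its unadjusted p was 0.341, and the 95% confidence interval ran from -0.45 to 1.17, or from 0.734-fold to 2.25-fold. The groups overlapped: in 7 of the 9 pairs formed by 1 HFD and 1 control mouse the HFD mouse had the higher level. A permutation of the mice gave p = 0.3 (two-sided exact test, where 3 against 3 allow no p below 0.1). Of all 30454 probes tested, 0% had an adjusted p under 0.05 in limma (0 probes), 4.47% had an unadjusted p under 0.05 (1360 probes), and the groups did not overlap in 11.9%. The methods' t-test also gave 0 probes after adjustment, and Bambi was in none of these sets. A larger change than that of Bambi, in either direction, was found for 25.3% of the probes, with a median log2 fold change of 0.022 over all of them. Among the 38 other named probes tested, 11 had a larger change than Bambi and 0 had an adjusted p under 0.05 in limma.

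The value for the diet changed when single mice were left out and when the slide row was entered in the fit. Without control mouse 1, the lowest of its group, the log2 fold change was 0.10. It was 0.54 without control mouse 2 and 0.44 without control mouse 3. Leaving out HFD mice 1, 2 and 3 in turn gave 0.54, 0.29 and 0.26. With the slide row as a block the log2 fold change was 0.18. All 3 control arrays lay in row 1 of the slide together with HFD mouse 1, whereas HFD mice 2 and 3 lay in row 2. Within row 1, the level was 2.25 in the HFD mouse and 2.23 in the control mice, a difference of 0.020, while row 2 held no control array. The row had no other control mice to compare with HFD mice 2 and 3, so group and row cannot be told apart for these.

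To examine the effect of LPS in mice on the high-fat diet, HFD + LPS was compared with HFD. With scaling and all arrays, this was the largest of the 3 differences for Bambi. It was smaller than that between HFD and control without scaling (-0.28 against 0.54) and without HFD + LPS mouse 2 (-0.33 against 0.36). The HFD + LPS mean stood at 0.635 of the HFD level, a log2 fold change of -0.65 with a standard error of 0.36 (limma, adjusted p = 0.374). Its unadjusted p was 0.101, and the 95% confidence interval ran from -1.46 to 0.15, or from 0.363-fold to 1.11-fold. In 8 of the 9 pairs of mice the HFD + LPS mouse had the lower level, the exception being HFD + LPS mouse 1 (2.63) against HFD mouse 1 (2.25). The permutation of the mice gave p = 0.2 (two-sided exact test, smallest possible p 0.1). The difference of 0.65 (log2) was larger than the SD of 0.50 between mice of a group, but it did not pass the test in limma, and the permutation of 3 against 3 mice could not have reached 0.05. In this comparison 0.249% of the 30164 probes tested had an adjusted p under 0.05 in limma, 18% had an unadjusted p under 0.05, and in 23.1% the groups did not overlap, and Bambi was in none of these sets. A larger change than that of Bambi was found for 20.2% of the probes and for 8 of the 39 other named probes tested, of which 0 had an adjusted p under 0.05 in limma. The 75 called probes each changed by at least 1.31 (log2). The standard error of Bambi was larger than that of 74.7% of the probes tested, most of which had a single spot per array.

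The mice given LPS differed in this gene. HFD + LPS mouse 1 lay within the range of the HFD mice, whereas mice 2 and 3 lay below all of them. Without mouse 1, the log2 fold change was -0.999 (standard error 0.34, unadjusted p = 0.0154, adjusted p = 0.153 in limma), with a 95% confidence interval of -1.76 to -0.24. Without mouse 2 it was -0.33 (adjusted p = 0.670 in limma). The negative control spots of mouse 2's array had a mean signal of 7.59, compared with 2.11 to 4.02 for the remaining 8 arrays, and 32.6% of its probes were well above background, compared with 40.6% to 55.6%. Their part in the level of Bambi was not tested. Slides were told apart here by scan date only, so slide and scan cannot be separated. By this reading, the array of mouse 3 was the only one on the second slide. Among the arrays of slide 1 alone the difference was -0.64. Within row 2, which held HFD mice 2 and 3 and HFD + LPS mice 1 and 2, it was -0.81, and within row 1 it was -0.34, from HFD + LPS mouse 3 and HFD mouse 1, whose arrays lay on different slides.

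HFD + LPS was also compared with control, which takes diet and LPS together. The mean of Bambi stood at 0.817 of the control level, a log2 fold change of -0.29 with a standard error of 0.36 (limma, adjusted p = 0.646). The unadjusted p was 0.439, and the 95% confidence interval ran from -1.09 to 0.51, or from 0.468-fold to 1.43-fold. The HFD + LPS mouse had the lower level in 5 of the 9 pairs, and the permutation of the mice gave p = 0.7 (two-sided exact test, smallest possible p 0.1). Adjusted over the 3 pairwise permutation tests by the Benjamini-Hochberg method, the p-values were 0.45, 0.45 and 0.7. In this comparison 3.92% of the 28707 probes tested had an adjusted p under 0.05 in limma, 25.5% had an unadjusted p under 0.05, and in 30% the groups did not overlap, and Bambi again was in none of these sets. A larger change than that of Bambi was found for 60.5% of them and for 23 of the 35 other named probes tested. Of these 35, 3 had an adjusted p under 0.05 in limma, namely Carhsp1 (0.0289), Cpt1a (0.0382) and Actb (0.0398), which are named after their values were seen. This comparison shares its arrays with both of the others and adds no independent evidence on either. Its direction was not stable: the log2 fold change was 0.038 without HFD + LPS mouse 2, and 0.27 when no scaling between arrays was applied. Under the other settings with scaling it lay between -0.65 and -0.073.

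**Figure D3:**
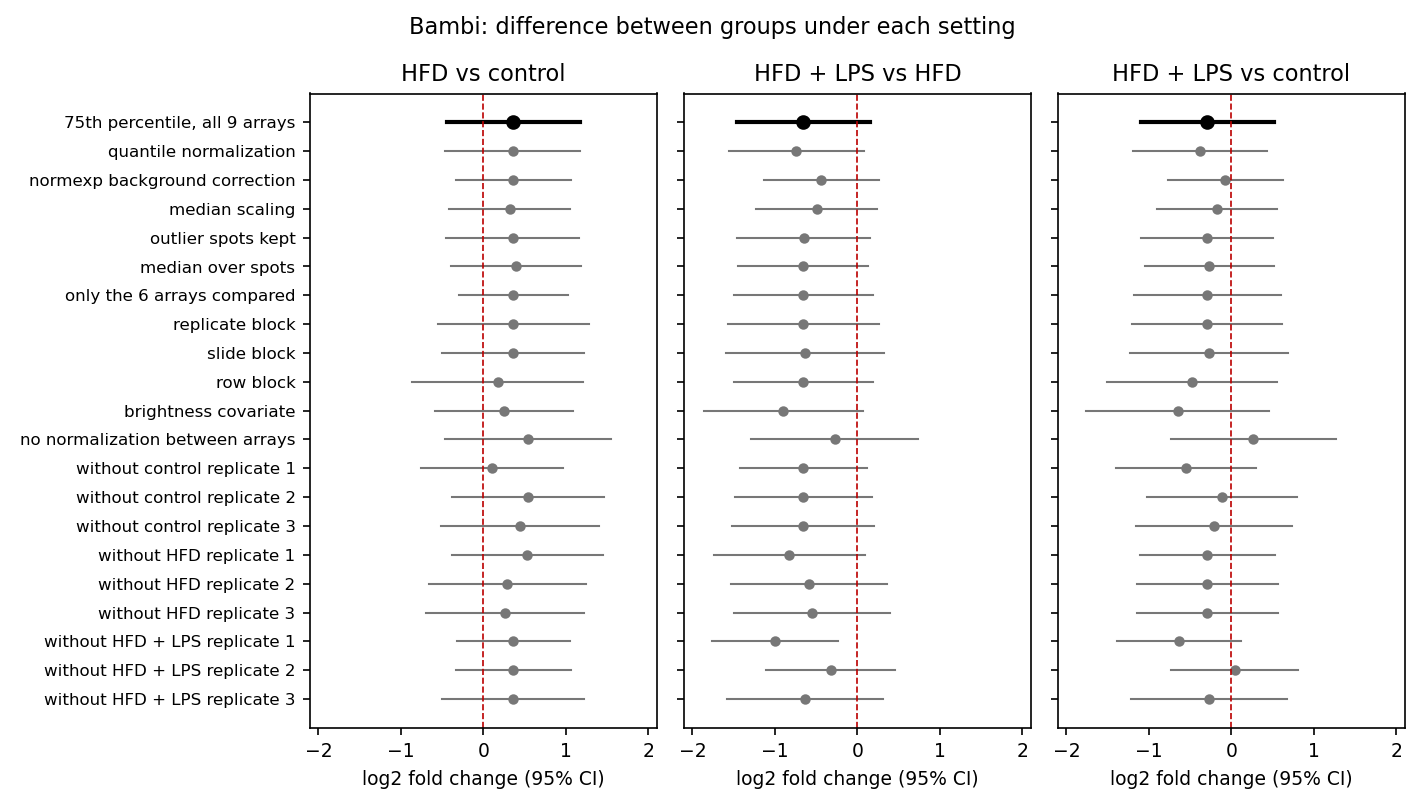
Log2 fold change of Bambi (x axis) in the 3 comparisons under the main setting (black) and under other settings and with each array left out (grey); lines are 95% confidence intervals from limma without adjustment. The points stay above 0 for HFD vs. control and below 0 for HFD + LPS vs. HFD, and they cross 0 for HFD + LPS vs. control without HFD + LPS mouse 2 and without normalization between arrays.

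The scaling between arrays bore on these values. The 75th percentile was 5.61 to 5.75 (log2) on the control arrays, 5.46 to 6.22 on the HFD arrays and 5.99 to 6.58 on the HFD + LPS arrays. Before scaling, the log2 signal of Bambi was 7.91 ± 0.51 in the control group, 8.45 ± 0.66 in the HFD group and 8.18 ± 0.79 in the HFD + LPS group (SD, n = 3 each). HFD lungs thus had the highest mean with and without scaling, whereas control and HFD + LPS changed places. Without scaling the difference between HFD + LPS and HFD was -0.28 in place of -0.65.

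Partners of Bambi in the TGF-β, BMP and Wnt pathways could not be followed beside it. Of 76 genes listed as ligands, receptors, inhibitors, signal transducers and targets of TGF-β and BMP, as Wnt pathway genes or as genes of the LPS response, 0 had a probe with a gene symbol. The same was true of 36 listed markers of lung and other cell types, so that the tissue and its cell types could not be checked by these markers. In whole lung, fewer cells with Bambi and less Bambi RNA per cell cannot be told apart.

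The named probes were therefore searched for genes whose level followed that of Bambi from mouse to mouse. Likeness was measured by Pearson's r over the 9 arrays, which share the scaling to the 75th percentile, among the 37 other named probes that passed the background limit on 5 or more arrays. The median r of these probes was -0.0026, and 18 of them had an r above 0. Over all 28218 probes that passed the same limit the median was 0.060 and the quartiles were -0.23 and 0.35.

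Closest to Bambi among these 37 probes was Ppara, which encodes a nuclear receptor that switches on fatty acid oxidation, with r = 0.82 (Spearman's rho 0.73, n = 9 arrays). The level of Ppara was -0.88, -0.048 and -0.66 in the control mice. It was -1.24, -0.68 and -0.19 in the HFD mice. In the HFD + LPS mice it was -0.097, -1.67 and -0.96. The value of -1.67, on the array with the highest mean signal of negative controls, was not well above background, so the level there has only an upper bound. Ppara was lowest in the first mouse of the control and HFD groups, like Bambi, and below the background limit in the second mouse given LPS. Taken as deviations from the group means, r was 0.93, below the 0.95 of Trp53rka and above the 0.90 of Gsta4, both picked out after their values were seen, whose r over all 9 arrays was 0.40 and -0.0026. Trp53rka was well above background on 7 arrays. Without HFD + LPS mouse 2, the r of Ppara was 0.67 over 8 arrays. No difference between groups passed the test for Ppara, with adjusted p-values of 1.00, 0.834 and 0.601 in limma for HFD vs. control, HFD + LPS vs. HFD and HFD + LPS vs. control. Hyal3, of the hyaluronidase family, followed with r = 0.74 and was also not well above background in HFD + LPS mouse 2. Without that mouse the r of Hyal3 was 0.71 over 8 arrays, above the 0.67 of Ppara. Kcnn2, which encodes a calcium-activated potassium channel, had a higher r than both over all 9 arrays, 0.86 (rho 0.82). It was well above background on 4 arrays, short of the limit of 5, and is named here after its values were seen. Atg3, an enzyme that conjugates lipid to LC3 in autophagy, had r = 0.65, which fell to 0.17 without HFD + LPS mouse 2, where it was not well above background, as in control mouse 1.

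Most opposed to Bambi among the 37 probes was H2-Q7, a non-classical MHC class I gene, with r = -0.83 (Spearman's rho -0.78, n = 9 arrays). Its level was 4.30, 3.61 and 3.79 in the control mice. It was 4.10, 3.88 and 3.70 in the HFD mice. In the HFD + LPS mice it was 3.56, 4.21 and 3.97. In each group the mouse with the highest H2-Q7 had the lowest Bambi, and the mouse with the lowest H2-Q7 the highest Bambi. As deviations from the group means r was -0.96, and without HFD + LPS mouse 2 it was -0.81 over 8 arrays. The group means of H2-Q7 were nearly alike, at 3.90, 3.89 and 3.91 in control, HFD and HFD + LPS lungs. H2-M2, another MHC class I gene, had r = -0.70, and Gpi1, the glycolytic enzyme glucose-6-phosphate isomerase, had r = -0.58, which was -0.17 without HFD + LPS mouse 2. Class I genes resemble each other in sequence, so their probes may read more than 1 gene.

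**Figure D4:**
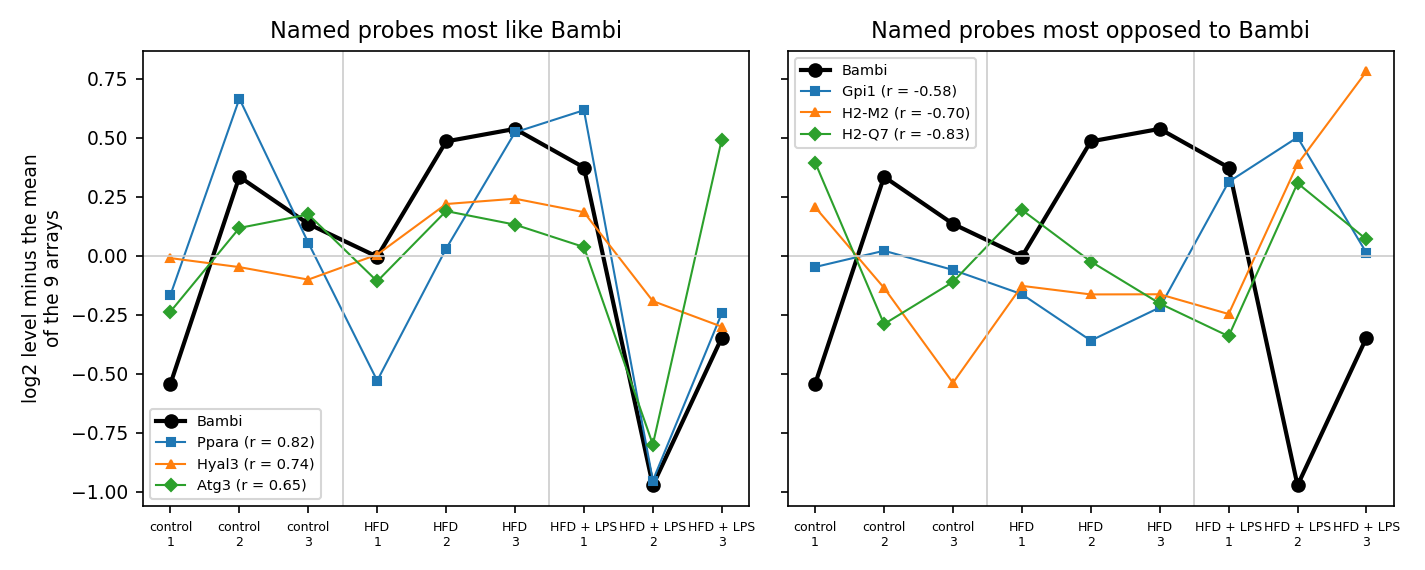
Log2 level minus the mean of the 9 arrays (y axis) on each array (x axis) for Bambi (black) and for the 3 named probes most like it (left) and most opposed to it (right), with Pearson's r over the 9 arrays in the legend. Ppara dips with Bambi in control mouse 1, HFD mouse 1 and HFD + LPS mouse 2, where H2-Q7 is highest in its group; Ppara, Hyal3 and Atg3 were not well above background in HFD + LPS mouse 2.

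The likeness depended in part on the scaling. With quantile normalization, r with Bambi was 0.79 for Ppara, 0.65 for Hyal3, 0.46 for Atg3, -0.46 for Gpi1, -0.77 for H2-M2 and -0.63 for H2-Q7, so the sign was the same for these 6 genes. The order changed, as H2-M2 lay further from Bambi than H2-Q7, E2f1 (0.55) took the place of Atg3 among the 3 most alike and Nup50 (-0.53) that of Gpi1 among the 3 most opposed. E2f1 was well above background on 5 of the 9 arrays. These correlations describe 9 arrays of 3 groups and were not tested.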

How the data were processed

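RNA of 9 mouse lungs was labelled by random priming and hybridised to 1-colour (Cy3) Agilent arrays. Spots were quantified by the authors in Feature Extraction (version 11.0.1.1, per the submitters' processing notes), and the deposited intensity of each spot is background-subtracted and detrended, without normalization between arrays. The table of log2 values that the authors made with GeneSpring GX and deposited has no row for the Bambi probe and served only for counts over all probes. Outlier and control spots were left out, as were 132 probes spotted 3 times. A probe's level is the mean log2 intensity over its spots after subtraction of the 75th percentile of the array. Symbols came from RefSeq transcripts (GRCm38.p6) for 46 of 50 probes with an accession. As the scanner files name another build, no coordinates are given.

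Differences came from limma 3.58.1 (R 4.3.3), in 1 fit of the 9 arrays by group (6 residual degrees of freedom), for probes that were well above background in 3 or more of the 6 arrays of a comparison, with Benjamini-Hochberg adjustment at a threshold of 0.05. A probe counted as well above background where at least 50% of its spots were. The limma step was run on simulated data with planted changes larger than those of Bambi in the main fit. Whether it finds changes of the size seen for Bambi was not tested. Arrays of a group correlated with r between 0.938 and 0.976, and arrays of different groups with r between 0.889 and 0.975. The genes to be named were Bambi, the 3 named probes with the highest and the 3 with the lowest r, and listed pathway genes with a named probe. The gene, the lists and the tests were chosen with earlier results of these data known. The number of arrays limits the precision.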

Additional observations from a re-analysis of the deposited data

How the results depend on the processing

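The 3 Bambi comparisons were refitted 72 times. By construction 29 refits left the fold change as it was, and of the 43 that changed it 41 kept the direction. Of all 72, 0 had an adjusted p under 0.05 in limma or after adjustment of the methods' t-test. HFD + LPS vs. control turned to 0.27 when arrays were not normalized to each other (an alternative that was chosen after seeing the data), and to 0.038 without HFD + LPS replicate 2. The cause was not tested. With each array left out, the log2 fold change ranged from 0.10 to 0.54 for HFD vs. control, from -0.999 to -0.33 for HFD + LPS vs. HFD and from -0.64 to 0.038 for HFD + LPS vs. control. Under the other settings it ranged from 0.18 to 0.54, from -0.90 to -0.28 and from -0.65 to 0.27, and the adjusted p from 0.869 to 1.00, 0.153 to 0.784 and 0.265 to 0.957 over all of them. The permutation p over the 3 groups was 0.264 to 0.607 under other settings and 0.111 to 0.571 with each array left out.

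In the fit with a replicate block, Bambi had log2 fold changes of 0.36, -0.65 and -0.29 with standard errors of 0.40, 0.40 and 0.40, and no call changed. For arrays of the same number, r of the deviations was 0.32, 0.012 and 0.076 (control with HFD), -0.032, -0.20 and -0.011 (HFD with HFD + LPS) and -0.17, -0.035 and 0.050 (HFD + LPS with control). For arrays of different numbers it lay between -0.25 and 0.23, between -0.20 and 0.23 and between -0.12 and 0.17 in the same order. With 3 arrays per group, these values cannot decide whether the numbers pair the mice.

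The counts over all probes moved more. HFD vs. control gave 0 probes in every fit, and 1796 in the methods' t-test without adjustment. HFD + LPS vs. HFD gave 75 probes, but 48 with quantile normalization, 235 with normexp, 167 with median scaling, 0 when dim probes were kept, 362 under the strict filter, 15 with the 6 arrays only, 49 with the replicate block, 45 with the slide block, 17 with the brightness covariate, 10 to 477 with each array left out, and 3887 and 1 in the methods' t-test before and after adjustment. HFD + LPS vs. control gave 1126, but 722 with the 6 arrays only, 491 with the slide block, 2198 without normalization, 0 when dim probes were kept or with the row block or the brightness covariate, 12 to 1551 with each array left out, and 5623 and 3 in the t-test. The authors' log2 values gave no value for Bambi.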
